A study of Homo sapiens with 4 samples.

Results

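The genes described here repair DNA double-strand breaks and crosslinks by homologous recombination and the Fanconi pathway, or signal such damage to the cell cycle. They are a list of 34 symbols, picked by name and not by a measured threshold, although earlier results of these data were known when the list was drawn up. A member was measured where a probe set of the array is annotated to that symbol alone, and where a gene had several such probe sets, the probe set with the highest mean over the arrays stood for it. This gave 26 measured members among 22395 genes in all. BRCA2, XRCC2, FANCA, FANCD2 and RBBP8 were not analysed here, because no probe set carries their symbol in the annotation used. RAD54B, ATM and ATRIP share their probe sets with another gene and were not counted. The cells were MCF10A, a human breast epithelial line that does not form tumours, stably transfected with LacZ (a bacterial enzyme gene, the control), with Her2 (ERBB2, a receptor tyrosine kinase), with the H1047R variant of PIK3CA (a lipid kinase subunit, called mutant PIK3CA below), or with Her2 and that variant together. All 4 groups were grown untreated in SFIHE medium, and the labels do not say whether a line is 1 clone or a pool. Each group was measured on 1 array. No difference therefore has a replicate check, no SD or p can be given, and every comparison below is between 2 arrays. Values are log2 expression values as deposited, so a difference of 1 is 2-fold.

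Homologous recombination copies the lost sequence from an undamaged sister chromatid, so it works mainly after DNA has been replicated. The broken end is trimmed to single-stranded DNA, which BRCA1, BARD1, PALB2 and BRCA2 help to prepare, and this strand invades the sister. The Fanconi core complex attaches ubiquitin to the FANCD2 and FANCI pair where a crosslink blocks a replication fork, and the kinases ATM and ATR, through CHEK2 and CHEK1, hold the cell cycle meanwhile. In breast epithelium these genes are known above all because inherited loss of BRCA1, BRCA2 or PALB2 predisposes to breast cancer. Many of them are transcribed under the control of E2F factors as cells enter S phase.

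The labels were checked first. A probe set that carries the symbols ERBB2 and MIR4728 jointly gave 5.96 for LacZ, 4.29 under the label Her2, 8.48 under mutant PIK3CA and 7.39 under both. This goes against the labels of the single-gene arrays, so every group below is named by the label its array carries. Whether the Her2 and mutant PIK3CA labels are exchanged cannot be settled from these files, and each value given for either of these arrays carries that doubt. Of 10 basal epithelial markers 6 were measured, and with both against LacZ 1 was at least 2-fold higher and 2 lower. CDH3 (P-cadherin) read 8.22 with LacZ and 4.98 with both, LAMB3 8.61 and 6.94, EGFR 8.11 and 7.16, KRT14 1.47 and 3.43, ITGA6 8.59 and 8.28, and KRT5 7.27 and 7.14. Their summed linear level was 1506 on the LacZ array, 1420 with Her2, 2809 with mutant PIK3CA and 761 with both. Of 7 fibroblast markers 5 were measured. Their summed linear level was 11.7, 11.2, 11.7 and 117 in the same order, where LUM (6.26) and DCN (5.06) were high on the array with both and COL1A1 (1.79), COL1A2 (0.84) and PDGFRB (0.82) stayed near background there. The 4 measured immune markers included CD68, at 4.68, 4.94, 6.24 and 6.78, with PTPRC and CD3E at most 1.15, and summed to 30.8, 35.3, 80.4 and 114 on the linear scale. The 8 luminal markers summed to between 35.4 and 54.1, and the 3 measured endothelial markers to 18.2, 15.5, 7.96 and 31.0. The part of these markers in the results below was not tested.

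Most of the measured repair genes were higher on the array labelled with both genes than on any other array, and most of them lay close together on the other 3. Against the LacZ array, 17 of 26 (65.4%) were at least 2-fold higher with both and 1 was at least 2-fold lower, with a median log2 difference of 1.73. Over all 22395 genes, 6.3% were at least 2-fold higher in this pair and 4.27% at least 2-fold lower, with a median of -0.03. The share at least 2-fold higher was 7.51% among protein-coding genes, 11.7% among genes with a mean log2 value of at least 3, and 13.9% among genes that reached 5 on at least 1 array. Of the 11 members with a mean of at least 3, 6 were at least 2-fold higher (median 1.14). That mean takes in the array with both, and EXO1 (at most 2.61 on the other arrays) and FANCI (at most 3.12) reach it only through that array. With values under 3 raised to 3, a floor chosen after seeing the data, 13 of 26 were at least 2-fold higher and the median was 0.87. The array with both had the highest value of the 4 for 23 of 26 members, against 25.6% of all genes. It stood at least 2-fold above each of the other 3 arrays for 14 members (53.8%), against 2.51% of all genes. RNA was measured in bulk, so more cells with a transcript and more of it per cell cannot be told apart.

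Many members were low on the other arrays, though their medians there lay above those of all genes. The median over the 26 was 2.25 on the LacZ array, 2.37 with Her2, 2.4 with mutant PIK3CA and 4.91 with both. Over all genes it was 1.68, 1.64, 1.68 and 1.65 in the same order, so a value under 2 was common. The lowest member stood at 0.75 on the LacZ array, and 12 members lay under a log2 value of 2 there, where the median over all probe sets of the array was 1.17. For such genes the starting level is not resolved, so neither the size of their difference nor the order among them is exact. With values under 3 raised to 3, 19 of 70 member differences of at least 2-fold fell under 2-fold. On the array with both, 1 member (XRCC3) remained under 2. Of the 26, 11 reached a log2 value of 5 on some array, and 6 of these did so on the array with both alone.

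**Figure D1:**
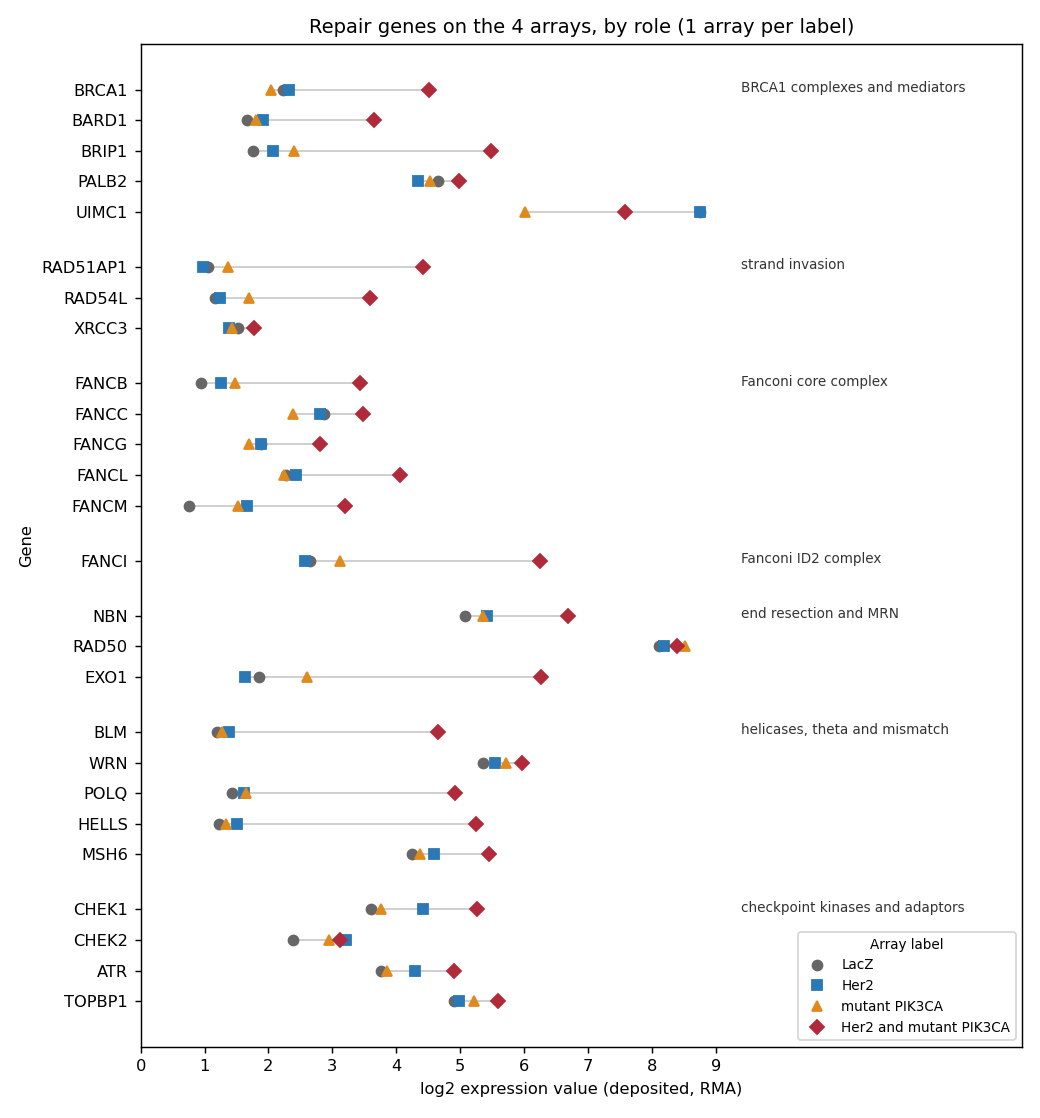
Log2 expression value (horizontal axis) of each of the 26 measured repair genes (rows, grouped by role) on the 4 arrays, with 1 marker per array and a grey line from the lowest to the highest value. The red diamonds of the array labelled with both lie to the right of the other 3 markers for 23 genes, and UIMC1, CHEK2 and RAD50 are the exceptions.

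Because many of these genes were high together on the same array, the promoters of 6 of them are shown. They are RefSeq windows of GRCh38.p14, from 250 bases before to 50 bases after a gene's start, read 5′ to 3′ along the gene, with motif matches in capitals. Of the 23 measured members with windows, 7 had several. For a gene with several, the window that holds the most of the motif words searched is shown, and the places given are those of that window. HELLS, BLM, RAD51AP1 and BRIP1 are shown as members far higher with both whose windows hold the E2F-type core, EXO1 as the member with the largest difference, and RAD50 as a member with nearly equal values on all arrays.
HELLS (chr10:94545538-94545837, plus strand): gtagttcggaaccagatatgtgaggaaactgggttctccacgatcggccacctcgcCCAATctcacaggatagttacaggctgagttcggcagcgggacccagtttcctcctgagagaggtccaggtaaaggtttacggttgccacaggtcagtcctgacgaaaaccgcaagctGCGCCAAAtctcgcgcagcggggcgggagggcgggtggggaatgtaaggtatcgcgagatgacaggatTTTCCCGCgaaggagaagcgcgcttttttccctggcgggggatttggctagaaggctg
BLM (chr15:90717096-90717395, plus strand): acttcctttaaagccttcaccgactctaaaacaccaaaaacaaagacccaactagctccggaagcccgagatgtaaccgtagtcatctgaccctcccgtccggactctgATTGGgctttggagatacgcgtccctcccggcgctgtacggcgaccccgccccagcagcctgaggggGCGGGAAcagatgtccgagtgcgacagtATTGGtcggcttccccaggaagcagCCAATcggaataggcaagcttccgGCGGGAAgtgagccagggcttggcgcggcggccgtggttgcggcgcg
RAD51AP1 (chr12:4538640-4538939, plus strand): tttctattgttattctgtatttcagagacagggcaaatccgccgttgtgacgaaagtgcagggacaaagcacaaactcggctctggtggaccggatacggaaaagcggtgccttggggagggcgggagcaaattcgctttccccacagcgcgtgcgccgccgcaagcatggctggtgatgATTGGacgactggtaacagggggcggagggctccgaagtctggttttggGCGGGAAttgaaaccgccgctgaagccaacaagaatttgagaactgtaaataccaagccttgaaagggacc
BRIP1 (chr17:61863479-61863778, minus strand): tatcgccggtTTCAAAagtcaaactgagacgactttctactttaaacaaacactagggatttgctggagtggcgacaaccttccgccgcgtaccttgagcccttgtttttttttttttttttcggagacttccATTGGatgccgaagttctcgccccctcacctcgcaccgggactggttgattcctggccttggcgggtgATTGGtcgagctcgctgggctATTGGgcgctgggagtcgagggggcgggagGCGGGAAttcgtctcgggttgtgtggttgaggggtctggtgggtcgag
EXO1 (chr1:241847954-241848253, plus strand): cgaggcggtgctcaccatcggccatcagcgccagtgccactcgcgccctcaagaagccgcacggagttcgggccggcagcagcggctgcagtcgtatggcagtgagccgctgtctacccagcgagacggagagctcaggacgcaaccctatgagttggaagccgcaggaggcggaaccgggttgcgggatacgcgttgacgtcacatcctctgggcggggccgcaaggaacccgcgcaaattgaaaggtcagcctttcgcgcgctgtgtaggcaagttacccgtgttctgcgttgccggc
RAD50 (chr5:132556727-132557026, plus strand): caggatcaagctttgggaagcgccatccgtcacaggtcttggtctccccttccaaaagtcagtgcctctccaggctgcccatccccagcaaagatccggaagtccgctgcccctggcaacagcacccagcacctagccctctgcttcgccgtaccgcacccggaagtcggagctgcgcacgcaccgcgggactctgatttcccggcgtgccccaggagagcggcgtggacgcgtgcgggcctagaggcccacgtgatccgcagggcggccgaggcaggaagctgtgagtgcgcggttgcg

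The motifs searched, on both strands, were the E2F-type words TTTCCCGC, TTTGGCGC, TTCGCGCC and the core GCGGGAA (which overlaps TTTCCCGC read on the other strand), the CCAAT box, and the cell cycle words TTTGAA and TTCGAA. In the HELLS window TTTGGCGC begins 76 bases before the start on the opposite strand, TTTCCCGC begins 8 bases before it, and CCAAT 194 bases before it. The BLM window holds GCGGGAA at 2 places and CCAAT at 3, counting both strands. In RAD51AP1 GCGGGAA begins 21 bases before the start, and in BRIP1 it begins at base 3 after it. The EXO1 and RAD50 windows hold none of these words, which says only that these letters are not in these windows. Windows were at hand for 23 of the 26 measured members, and FANCI, NBN and WRN had none. The core GCGGGAA was in a window of 13 of 23 members (56.5%), against 7.82% of the 27305 genes with a window and 10.3% of those also measured on the arrays. Among members at least 2-fold higher with both than with LacZ it was present in 10 of 15, and among the others in 3 of 8. Counting any E2F-type word, the numbers were 10 of 15 and 4 of 8, and for TTTCCCGC alone 2 of 15 and 1 of 8. TTTGGCGC was found in HELLS only and TTCGCGCC in TOPBP1 only. CCAAT was present in 52.2% of members against 39.7% of genes, TTTGAA in 13.0% against 18.2%, and TTCGAA in 0 of 23 members against 1.82%. These matches describe the letters and not a bound site.

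Among the genes of the BRCA1 complexes, 3 of 5 measured were at least 2-fold higher with both than with LacZ. BRCA1, a ubiquitin ligase that steers breaks to recombination, read 2.22 on the LacZ array, 2.32 with Her2, 2.04 with mutant PIK3CA and 4.51 with both. Its partner in the ligase, BARD1, read 1.67, 1.92, 1.80 and 3.65 in the same order. BRIP1, a helicase that binds BRCA1, read 1.76, 2.07, 2.41 and 5.48. For these 3 genes the array with both stood alone, 4.88-fold above LacZ for BRCA1, 3.96-fold for BARD1 and 13.1-fold for BRIP1, and the other arrays were at most 0.64 apart. PALB2, which bridges BRCA1 and BRCA2, differed little, at 4.65, 4.33, 4.53 and 4.98. UIMC1, a ubiquitin-binding subunit of the BRCA1-A complex, was the member that went the other way and is described separately.

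Of the 3 measured genes that act in strand invasion, 2 followed the same pattern. RAD51AP1, which stimulates strand invasion, read 1.05 on the LacZ array, 0.98 with Her2, 1.37 with mutant PIK3CA and 4.41 with both. RAD54L, a motor protein that drives the invasion, read 1.16, 1.24, 1.70 and 3.59. Both were near background, under 2, on every array but that with both, and clearly above it there. They lay 10.3-fold and 5.42-fold over LacZ with both, and the size of these differences is not exact. XRCC3, which also acts in recombination, stayed between 1.38 and 1.78, near background on all arrays. The probe set annotated to RAD54B and FSBP together read 2.39, 2.97, 2.57 and 4.83, and its signal cannot be assigned to either gene.

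In the Fanconi pathway, 3 of 5 measured core complex genes and FANCI were at least 2-fold higher with both than with LacZ. FANCI, which with FANCD2 is marked with ubiquitin by the core complex, read 2.65 on the LacZ array, 2.58 with Her2, 3.12 with mutant PIK3CA and 6.25 with both, which is 12.1-fold above LacZ. FANCL, the ubiquitin ligase of the core complex, read 2.27, 2.43, 2.24 and 4.06. FANCB, a subunit bound to FANCL, read 0.95, 1.26, 1.47 and 3.43. For these genes again only the array with both stood out. FANCM, the DNA translocase that anchors the complex, read 0.75, 1.67, 1.52 and 3.19, so both single-gene arrays lay 0.92 and 0.78 above LacZ, but at values near background. FANCC (2.86, 2.80, 2.39 and 3.49) and FANCG (1.88, 1.88, 1.70 and 2.80) were also highest with both. Their measured differences from LacZ, 0.62 and 0.92, were under 2-fold, and that of FANCG starts from a value under 2 and is not exact.

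Of the 3 measured genes that trim and sense broken ends, 2 were at least 2-fold higher with both than with LacZ. EXO1, the exonuclease that extends resection, had the largest difference of all members: 1.86 on the LacZ array, 1.63 with Her2, 2.61 with mutant PIK3CA and 6.27 with both. It was 21.2-fold above LacZ with both, and mutant PIK3CA lay 0.75 above LacZ. NBN and RAD50 belong to the MRN complex, which binds the ends first. NBN read 5.07, 5.43, 5.37 and 6.69, highest with both by 1.62 over LacZ. RAD50 read 8.11, 8.19, 8.52 and 8.39, within 0.41 over all arrays and highest with mutant PIK3CA, unlike its partner NBN.

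The helicases HELLS, BLM and WRN, the polymerase POLQ and the mismatch protein MSH6 gave 4 of 5 members at least 2-fold higher with both than with LacZ. HELLS, a chromatin remodelling helicase, read 1.23 on the LacZ array, 1.51 with Her2, 1.33 with mutant PIK3CA and 5.25 with both. BLM, a helicase that dissolves recombination intermediates, read 1.20, 1.39, 1.27 and 4.65, and POLQ, the polymerase of theta-mediated end joining, read 1.43, 1.61, 1.64 and 4.91. All 3 were near background on every array but that with both, so the size of their differences from LacZ (16.1-fold, 10.9-fold and 11.2-fold) is not exact. With values under 3 raised to 3 the log2 differences were 2.25, 1.65 and 1.91. MSH6, which recognises mismatches, read 4.25, 4.60, 4.38 and 5.46. WRN, a relative of BLM, ran from 5.35 on the LacZ array to 5.97 with both and was under 2-fold in every pair.

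Of the 4 measured checkpoint genes, 2 (CHEK1 and ATR) were at least 2-fold higher with both than with LacZ. CHEK1, the kinase downstream of ATR, read 3.61 on the LacZ array, 4.42 with Her2, 3.77 with mutant PIK3CA and 5.27 with both. ATR read 3.76, 4.29, 3.86 and 4.90. For both genes the array labelled Her2 came second, 0.81 and 0.53 above LacZ. CHEK2, the kinase downstream of ATM, was lowest on the LacZ array at 2.39 and read 3.22, 2.94 and 3.12 on the others, without a separate level on the array with both. TOPBP1, which activates ATR, stayed between 4.91 and 5.59. The probe set annotated to ATM and NPAT together read 3.87, 4.68, 3.91 and 5.15, and that annotated to ATRIP and TREX1 together 2.65, 2.59, 2.97 and 3.53.

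On the single-gene arrays every measured repair gene but UIMC1 lay within 2-fold of the control. With Her2, 0 of 26 members were at least 2-fold higher than on the LacZ array and 0 lower, where 1.92% and 1.75% of all genes were, and the median difference was 0.17. The members ran from -0.31 (PALB2) to 0.92 (FANCM, under 2 on each of the 2 arrays), and 19 of 26 were above 0. The median over all genes was -0.02. Many members lay near background on these 2 arrays, where the sign of a small difference is not resolved, so no conclusion is drawn from that count. On the array labelled mutant PIK3CA, 0 were at least 2-fold higher and 1 (UIMC1) lower, against 2.71% and 1.91% of all genes, with a median of 0.19. FANCM at 0.78, EXO1 at 0.75 and BRIP1 at 0.64 differed most upwards. Between those 2 arrays, mutant PIK3CA against Her2, 0 members were at least 2-fold higher and 1 lower (UIMC1), against 2.95% and 2.55% of all genes, and EXO1 lay just inside at 0.97. Counts of 0 or 1 among 26 members are near these shares of all genes. Members under a log2 value of 2 (12 on the LacZ array and 11 on the Her2 array) had little room to read 2-fold lower.

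The array with both was also compared with each single-gene array. Against mutant PIK3CA, 20 of 26 members were at least 2-fold higher (5.09% of all genes) and 0 at least 2-fold lower (3.46%), with a median of 1.62. UIMC1 is among these 20 by a probe set that is in doubt, as described below. Without it, 19 of 25 were at least 2-fold higher. Against Her2, 14 were at least 2-fold higher (4.38%) and 1 lower (2.63%), with a median of 1.39. With values under 3 raised to 3 the median against Her2 was 0.65, and among the 11 members with a mean of at least 3 it was also 0.65, with 3 of them at least 2-fold higher. These 3 were NBN, EXO1 and FANCI, and EXO1 and FANCI reach that mean only through the array with both. HELLS differed by 3.91 and 3.73 in these pairs, EXO1 by 3.66 and 4.63, BLM by 3.37 and 3.26 and POLQ by 3.27 and 3.30. CHEK1 differed by 1.5 against mutant PIK3CA and by 0.85 against Her2, and ATR by 1.04 and 0.61. These pairs and the pair with LacZ share the array with both, so they are not independent of each other. In all 3 of them 14 members were at least 2-fold higher, and 6 members (PALB2, XRCC3, RAD50, WRN, CHEK2 and TOPBP1) were under 2-fold in each by their measured values, of which those of XRCC3 lie near background.

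**Figure D2:**
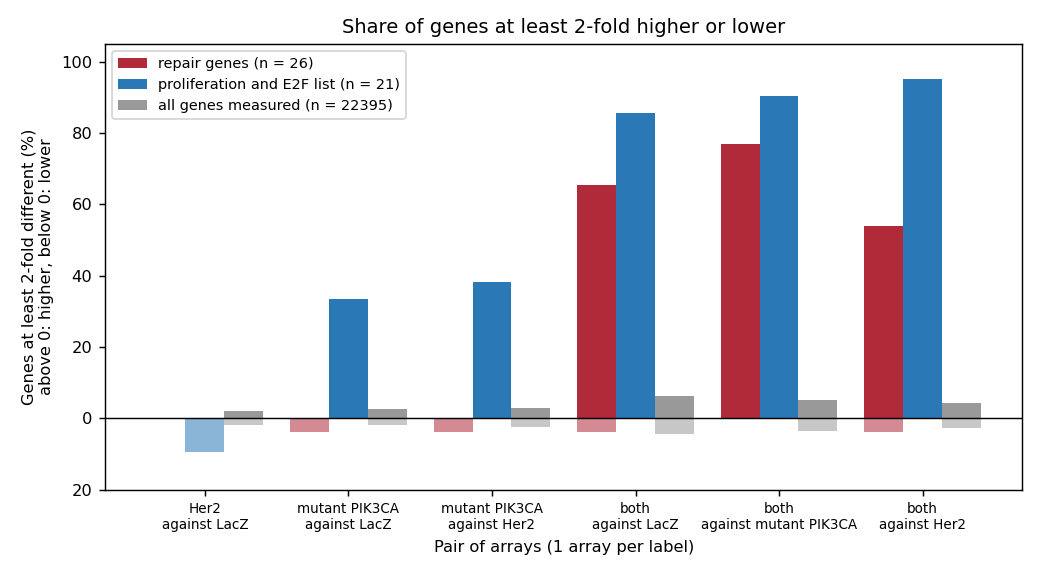
Percentage of genes at least 2-fold higher (above 0) or lower (below 0, paler) in each pair of arrays, for the 26 repair genes, the 21 genes of the proliferation and E2F list and all 22395 genes measured; "both" is the array labelled Her2 and mutant PIK3CA. Repair genes at least 2-fold higher appear only in the 3 pairs with that array (65.4%, 76.9% and 53.8%). The proliferation list also has 33.3% in mutant PIK3CA against LacZ and 38.1% in mutant PIK3CA against Her2. In the former its MCM genes and PCNA, among others, are under 2-fold.

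Departure from additivity is the value with both genes minus each single-gene value plus LacZ. It was at least 1 for 15 of 26 members and at most -1 for 0, against 5.72% and 4.5% of all genes, with a median of 1.36. The median was 0.71 with values under 3 raised to 3. The largest values were in EXO1 (3.89), HELLS (3.63), FANCI (3.21), BLM (3.19), RAD51AP1 (3.12) and POLQ (3.09). WRN (0.06) and RAD50 (-0.20) were among the members nearest to 0. The 4 checkpoint genes lay between -0.65 in CHEK2 and 0.69 in CHEK1. For UIMC1 the value was 1.56, although it was not higher with both than with LacZ. Without UIMC1, 14 of 25 members were at least 1, with a median of 1.16. For members near background on the other 3 arrays this measure repeats the level on the array with both, and without replicates its error is unknown.

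The repair genes were set beside proliferation genes, 21 genes of DNA replication, mitosis and E2F control that were all measured. With both against LacZ, 18 of these 21 were at least 2-fold higher. CDK1, the mitotic kinase, differed by 4.96, CCNA2 (cyclin A2) by 4.70 and TOP2A, a topoisomerase, by 4.34. On the LacZ array CDK1 read 1.66 and E2F7, named below, 1.84, so the size of their differences from it is not exact. E2F3 was lowest at 0.22. With mutant PIK3CA against LacZ, 7 of the 21 (33.3%) were at least 2-fold higher, namely MKI67 (2.15), E2F7 (2.15), TOP2A (2.11), MYBL2 (1.85), CCNA2 (1.83), CDK1 (1.28) and CCNB1 (1.11). In that pair 0 of 26 repair genes were, as given above, which is near the 2.71% of all genes. The median over the 21 was 0.65 there, and the lowest was MCM3 at -0.43. The replication genes MCM2 to MCM7 (-0.43 to 0.65) and PCNA (0.28) were under 2-fold in that pair, as the repair genes other than UIMC1 were. So were CCNE1 (-0.41), CCNE2 (0.31), E2F1 (0.69), E2F2 (0.16), E2F3 (0.54), E2F8 (0.66) and FOXM1 (0.74). With mutant PIK3CA against Her2, 8 of the 21 (38.1%) were at least 2-fold higher and 0 lower. With Her2 against LacZ, 0 of the 21 were at least 2-fold higher and 2, MKI67 (-1.21) and TOP2A (-1.22), were lower. These genes were named after their values were seen, except CDK1, CCNA2, TOP2A and E2F3. The difference between the lists was not tested.

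**Figure D3:**
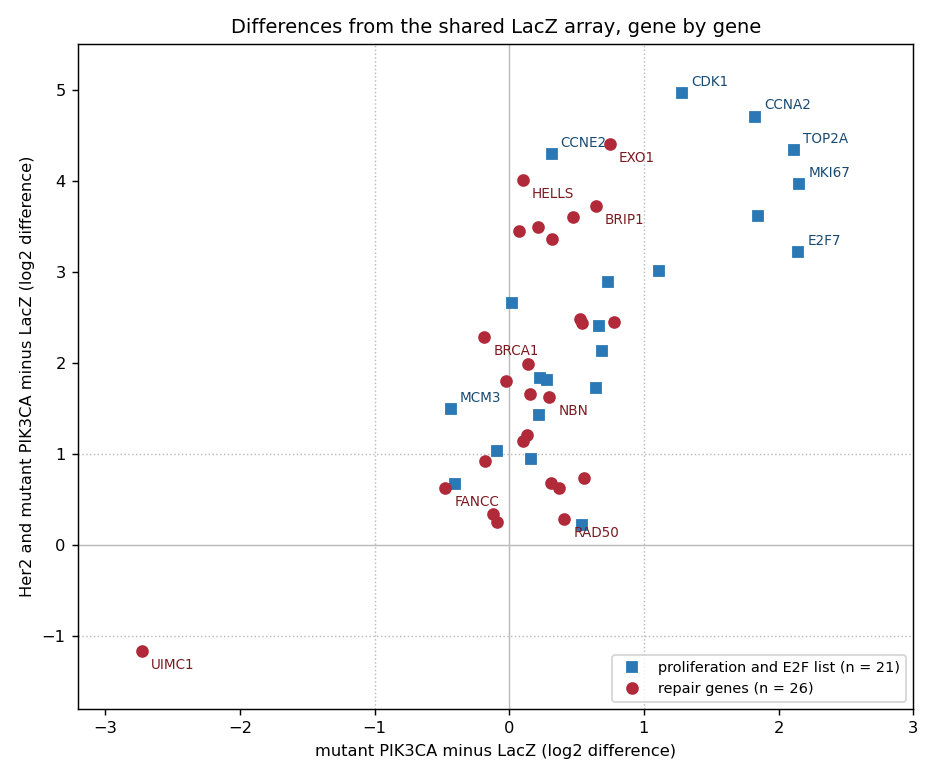
Log2 difference from LacZ under the label mutant PIK3CA (horizontal axis) and under the label with both genes (vertical axis) for 26 repair genes (red circles) and 21 proliferation and E2F genes (blue squares), with dotted lines at 2-fold. The axes share the LacZ array; repair genes other than UIMC1 lie between -0.47 and 0.78 on the horizontal axis, and 7 proliferation genes lie beyond 1.

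Other genes of the pathways behaved unevenly with both against LacZ. Of 31 further recombination genes measured, 11 were at least 2-fold higher and 1 lower (median 0.61). MCM8, a helicase subunit of break repair, differed by 2.94, the resection nuclease DNA2 by 2.94 and the resolvase GEN1 by 2.69, and RECQL5 by -1.12. DNA2 (1.04) and GEN1 (1.78) were under 2 on the LacZ array, so the size of their differences from it is not exact. On the single-gene arrays 3 of the 31 were at least 2-fold above LacZ with mutant PIK3CA (MCM8 at 1.64, GEN1 at 1.33 and SFR1 at 1.26) and 2 with Her2 (RECQL at 1.15 and GEN1 at 1.06). SFR1 and RECQL were named after their values were seen. Of 12 further Fanconi genes, 2 were higher and 1 lower (median 0.38). UBE2T, the conjugating enzyme that works with FANCL, read 3.83, 3.85, 4.32 and 7.64 over the arrays in the order LacZ, Her2, mutant PIK3CA and both. USP1, which removes the ubiquitin again, differed by 1.98 and RFWD3, a ubiquitin ligase, by 0.99, whereas FANCF read 5.24 with LacZ and 4.24 with both. Of 17 further checkpoint genes 6 were higher and 0 lower (median 0.61), led by CLSPN (claspin, the adaptor between ATR and CHEK1) at 4.36, the phosphatases CDC25C at 2.56 and CDC25A at 1.98, with HUS1 lowest at -0.36. CLSPN (1.32) and CDC25A (1.95) also started under 2 on the LacZ array.

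Genes of other repair pathways were counted in the same way. Of 11 end joining genes 3 were at least 2-fold higher with both than with LacZ and 0 lower, with a median of 0.69. PARP1, the sensor of strand breaks, differed by 1.32, the nuclease DCLRE1C by 1.28, XRCC4 by 1.14 and LIG3, a ligase, by -0.96. Of 4 further mismatch repair genes 1 was higher, PMS1 at 1.29, while MSH3, MLH3 and PMS2 lay at 0.46, 0.28 and 0.01. Of 19 excision repair genes 1 was higher, with a median of 0.06. That gene was NEIL3, a glycosylase, at 4.26, which also differed by 1.63 with mutant PIK3CA, while UNG and DDB2 lay at 0.79 and 0.78 and APEX1 at -0.59. NEIL3 read 1.27 on the LacZ array, near background, so the size of its differences is not exact. The members' median of 1.73 thus stood above those of these lists, and the differences between lists were not tested. The members were listed with earlier results of these data known, so no conclusion is drawn from this order. The proliferation list had a median of 2.40 in the same pair, above that of the members.

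UIMC1 needs a reading of its own, because it is the only member with more than 1 probe set and the 2 disagree. Probe set 17100695, which the highest mean selects, read 8.75 on the LacZ array, 8.76 with Her2, 6.02 with mutant PIK3CA and 7.59 with both. It was thus lower by 2.72 log2 units with mutant PIK3CA than with LacZ (a difference of -2.72) and lower by 1.16 with both (-1.16). Probe set 17003151 read 4.55, 4.78, 4.33 and 4.70, with differences of -0.21 and 0.15 in the same pairs, so by this probe set UIMC1 was nearly level.

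Probe sets of this array are numbered along the chromosomes. For 25 of 26 members the 4 nearest named probe sets in the numbering, 2 on each side, belong to genes of the member's own chromosome. For the selected probe set of UIMC1 this holds for 0 of 4. UIMC1 lies on chromosome 5, and that probe set comes between those of CYTB and ND6, genes of the mitochondrial genome, whereas 17003151 comes between those of HK3 and MXD3 on chromosome 5. ND6 read 8.43, 8.63, 7.61 and 8.08, also lowest with mutant PIK3CA, by 0.83 below LacZ (a difference of -0.83). CYTB lay within 11.06 and 11.52. Which transcript probe set 17100695 reads cannot be settled from these files, and the values under the name UIMC1 carry that doubt. Without UIMC1, 17 of 25 members were at least 2-fold higher with both than with LacZ and 0 lower, with a median of 1.79.

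**Figure D4:**
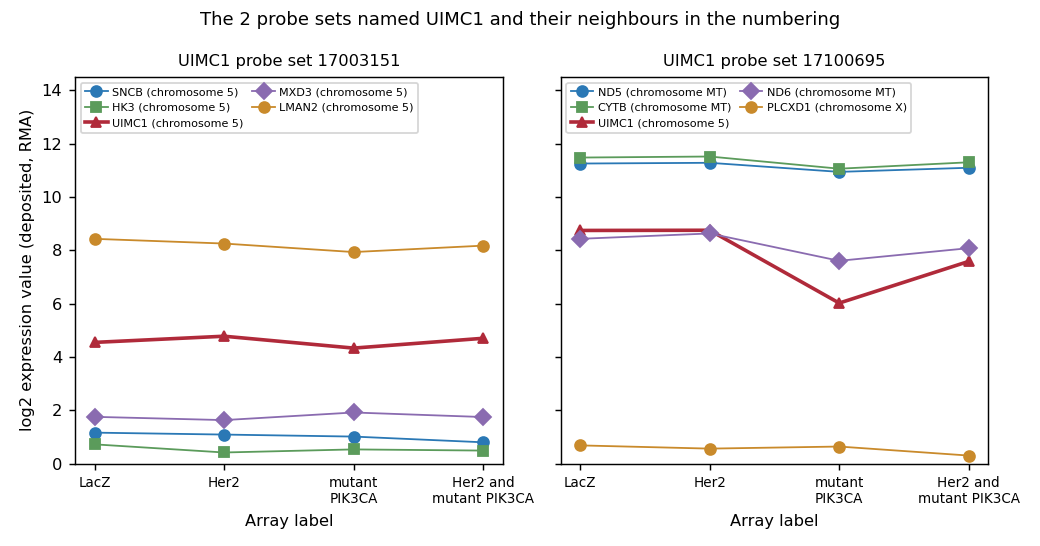
Log2 expression value (vertical axis) on the 4 arrays (horizontal axis) of the 2 probe sets named UIMC1 (red, thick) and of the 2 nearest named probe sets on each side in the array's numbering, with the chromosome of each gene. The probe set on the left stays between 4.33 and 4.78 among chromosome 5 genes, and that on the right is lowest at 6.02 with mutant PIK3CA and comes next to mitochondrial genes.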

How the data were processed

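RNA from 4 MCF10A lines was hybridised to 1 Affymetrix whole-transcript array each. The authors deposited log2 values, 1 per probe set and array, from the RMA method of oligo according to the submitters' processing notes, which name no version or filter. That method corrects background, brings arrays to a common distribution and combines the probes of a set. The base of the logarithm was inferred from RMA and from the value range. The number of arrays limits the precision.

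Of 53617 probe sets, 23871 carry 1 gene symbol in the platform annotation, 1842 several and 27904 none here. Symbols were updated by gene identifier with RefSeq (GRCh38.p14), which changed 90. Differences and counts were computed with pandas 2.3.3 on all 22395 genes, unfiltered, and tested on simulated data. No test compared groups. Genes were counted from a 2-fold difference. Alternatives were 2 filters, quantile normalization and cyclic loess (limma 3.58.1, 3 iterations), centring, the mean of probe sets and other fold thresholds. A floor at 3, the other UIMC1 probe set and protein-coding genes as background were added after seeing the data. The members and lists were chosen with earlier results of these data known. All members were to be named, and of each other list the 3 highest and the lowest gene with both against LacZ.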

Additional observations from a re-analysis of the deposited data

How the results depend on the processing

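No paired analysis was possible because each group has 1 array, and no replicate could be left out. Quantile normalization, cyclic loess and centring turned the direction of 0 of 70 member differences of at least 2-fold, and 2, 0 and 0 of them fell under 2-fold. The deposited values had already been brought to a common distribution, and centring shifted the mutant PIK3CA array most, by 0.03. These settings could hardly turn differences of this size, so they are no independent check. With cyclic loess 1 member, EXO1, was at least 2-fold higher in mutant PIK3CA against Her2, and 16 in place of 15 for departure from additivity. The filters moved counts by leaving 11 members each. With genes that reach 5 on at least 1 array, members at least 2-fold higher with both numbered 7 against LacZ, 8 against mutant PIK3CA, 5 against Her2 and 5 for departure from additivity. Of the 11 members that reach 5, 6 do so on the array with both alone, so these counts are not an independent check. With a mean of at least 3 the counts were 6, 7, 3 and 3, and the medians were 1.14 with both against LacZ, 0.65 against Her2 and 0.73 for departure. EXO1 and FANCI pass this filter only through the array with both. At a 3-fold threshold 13 were higher with both against mutant PIK3CA, and 0 were lower with both against LacZ or Her2. At 1.5-fold, 3 were higher in Her2 against LacZ, 3 in mutant PIK3CA against LacZ and 1 in mutant PIK3CA against Her2, with 2 lower in the last and 1 lower for departure. With values under 3 raised to 3, chosen after seeing the data, 13, 14 and 10 members were still higher with both against LacZ, mutant PIK3CA and Her2, and the medians were 0.87 against LacZ, 0.65 against Her2 and 0.71 for departure. With the other UIMC1 probe set, 0 members were lower in any pair, and UIMC1 turned to 0.15 with both against LacZ. Members at least 2-fold higher then numbered 19 with both against mutant PIK3CA and 14 for departure from additivity. The mean of both probe sets gave 0 lower with both against LacZ or Her2, and the same 19 and 14.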

Other observations

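Some members share a promoter region with a gene read in the opposite direction, so the partners were listed from the RefSeq windows after the values were seen. A partner on the other strand starts within 1000 bases for 7 measured members, in 8 pairs. With both against LacZ, 2 of the 8 partners were at least 2-fold higher and 0 lower, where 6.3% and 4.27% of all genes were. NBR2, beside BRCA1, read 2.34, 2.71, 2.51 and 2.34 on the LacZ, Her2, mutant PIK3CA and both arrays, a difference of 0.00, where BRCA1 differed by 2.29. NBR1, also beside BRCA1, read 6.97, 6.34, 6.42 and 6.33, a difference of -0.64. FERRY3, beside RAD51AP1, read 3.67, 3.87, 3.50 and 4.82, a difference of 1.15 against 3.36 for RAD51AP1. MOSPD2, beside FANCB, read 2.59, 3.51, 3.41 and 4.22, a difference of 1.63 against 2.49 for FANCB. DCTN5, beside PALB2, and ZFYVE21, beside XRCC3, differed by 0.15 and -0.14, where their neighbours differed by 0.34 and 0.25. HSCB, beside CHEK2, differed by 0.75 against 0.74 for CHEK2, and TF, beside TOPBP1, by -0.06 against 0.68, with TF near background at 0.77 to 1.10. Partners and members are on the same arrays, and the pairs are too few for more than this description.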
